A study of Rattus norvegicus with 12 samples.

Results

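The genes described here encode potassium, sodium, calcium and chloride channels, their auxiliary subunits and the HCN pacemaker channels. Members were all probes whose platform gene symbol began with Kcn, Cacn, Clcn, Scn and a digit, or Hcn and a digit, with 1 gene left out by the rule. They came to 126 probes for 123 genes, out of 22523 probes and 22067 genes or unnamed probes on the array. By ion, 80 were potassium channel genes, 11 sodium, 23 calcium, 7 chloride and 2 HCN. By role, 78 encode pore-forming subunits, 35 auxiliary subunits and 10 modifier subunits that form no channel of their own.

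Transcripts of 2 tissues, pituitary and hypothalamus, were profiled in male Wistar rats on postnatal day 70 with 12 RatRef-12 expression arrays from Illumina. On gestation day 15 their mothers had been dosed orally with vehicle or with TCDD, a dioxin that activates the aryl hydrocarbon receptor. Each tissue had 3 arrays from pups of vehicle dams and 3 from pups of TCDD dams, so the pups met the compound through the dam. The sources disagree on the dose (1 µg/kg in the series text, 1 mg/kg in corn oil in the sample protocols), and no result below is tied to a dose. Which arrays share a litter or an animal is not in the labels, and p-values reflect array-to-array spread only, which may be technical.

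Voltage-gated sodium channels carry the upstroke of the action potential, and voltage-gated calcium channels admit the calcium that triggers hormone or transmitter release. Potassium channels repolarise the membrane and set the resting potential, and ClC proteins move chloride across the plasma or vesicle membrane. Pituitary endocrine cells are excitable and fire spontaneously, with calcium entry coupled to secretion, while the hypothalamus holds neurons and glia whose channels serve axonal conduction, synapses and potassium buffering. Bulk tissue was measured, so fewer cells of a type and less RNA per cell cannot be told apart.

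Between 44.1% and 50.8% of probes were detected per array, and arrays correlated at 0.9874 to 0.9954 within a tissue and 0.9183 to 0.9303 between tissues. The tissue labels matched their markers: 11 of 11 tested pituitary hormone cell genes were higher in vehicle pituitary, and 12 of 14 hypothalamic peptide genes, 12 of 13 pan-neuronal genes and 10 of 11 oligodendrocyte genes were higher in vehicle hypothalamus. Astrocyte markers (8 of 8 tested), endothelial and mural markers (6 of 6) and microglia and leukocyte markers (5 of 7, with 1 the other way) were higher in hypothalamus. Meninges and fibroblast markers were higher in pituitary for 6 of 10 and lower for 2, and folliculostellate and stem markers for 2 and 3 of 6. Of all features, 35.7% were higher in vehicle pituitary and 28.6% in vehicle hypothalamus. The part of cell makeup in the channel differences between tissues was not tested. Hypothalamus vehicle array 1 stood apart. There, 21.8% of 78 tested channel genes lay more than 0.5 log2 from the mean of the other arrays of its group, against 1.28% to 11.5% on the other 11 arrays and 9.92% of all features on that array. Several results that rest on it are given with and without it.

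A channel gene was counted as detected in a group when its detection p was under 0.05 on all 3 arrays. On vehicle arrays, 49 of 123 channel genes (39.8%) were detected in the pituitary, where the share over all features was 42.4%. In the hypothalamus 66 (53.7%) were detected, against 45.9% of all features. Over the genes that carry a name, as the channel genes do, the shares were 52.2% in the pituitary and 56.4% in the hypothalamus. Both tissues shared 46 detected genes. At the other end, 36 channel genes were detected on 0 of 12 arrays (40.7% of all features were), among them the BK pore gene Kcnma1, the M-current subunit Kcnq3, the Kv1 genes Kcna1 and Kcna2, the P/Q-type calcium pore gene Cacna1a and the sodium pore gene Scn9a. Detection on a probe is a limit of these arrays and does not show that a gene is silent.

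**Figure D1:**
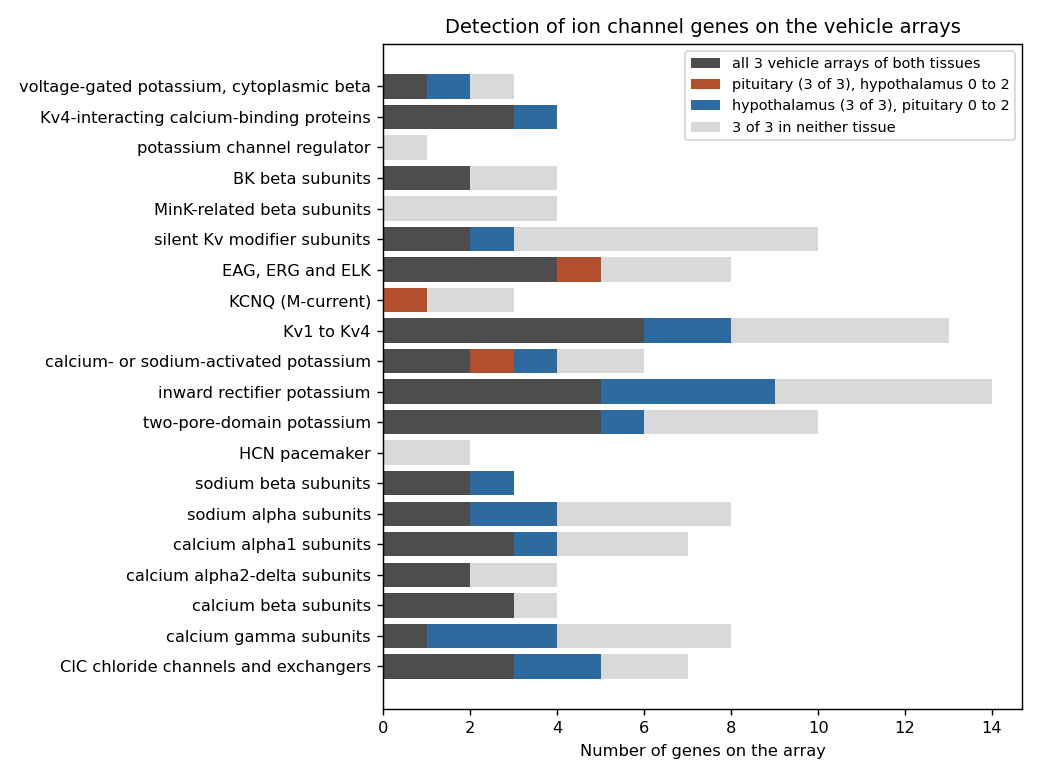
Number of channel genes on the array (horizontal axis) in each subfamily, split by where they were detected on vehicle arrays (3 arrays a tissue). Hypothalamus-detected genes without full detection in the pituitary (blue) stand mainly among gamma subunits, inward rectifiers and sodium channels, and the corresponding pituitary genes (orange) are 3 in all.

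Detection in 1 tissue alone ran mostly toward the hypothalamus. The 13 genes on all 3 vehicle hypothalamus arrays and 0 of 3 vehicle pituitary arrays were the sodium pore genes Scn1a and Scn2a, the sodium beta subunit Scn2b, the gamma subunits Cacng3, Cacng4 and Cacng8, and 7 potassium channel genes (Kcna6, Kcnab1, Kcnip1, Kcnj12, Kcnj16, Kcns3 and Kcnt1). Over all features, 3.64% had that pattern. The reverse held for 1 channel gene, Kcnn4, the intermediate-conductance calcium-activated potassium channel (1.26% of all features). Another 7 hypothalamus-detected genes were seen on only 1 or 2 pituitary arrays (Cacna1c, Clcn6, Clcn7, Kcna10, Kcnj14, Kcnj3 and Kcnk3), as were Kcnh8 and Kcnq1 in the opposite sense. The remaining 18 genes were detected on some arrays but on all 3 vehicle arrays of neither tissue.

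With a stricter detection p under 0.01, the pituitary count fell from 49 to 29. Of the genes sought by name, those with a probe but too dim to test were Cacna2d2, Kcnma1, Kcnq3, Kcna1, Kcnj10, Hcn4, Scn8a and Scn9a.

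Vehicle pituitary was then compared with vehicle hypothalamus, to describe the channel set of each tissue in unexposed animals. Limma's test, adjusted over 11910 features, covered 78 of the 123 channel genes. The other 45 were detected on fewer than 3 of the 12 arrays. Of the 78, 13 (16.7%) were higher in pituitary, where 35.7% of all features were, and 38 (48.7%) were higher in hypothalamus, where 28.6% were. In either direction 51 were called, where 64.3% of features were, and arrays of the tissues did not overlap for 52 of the 78 (66.7% of features). At 2-fold or more the counts were 4 and 21 (10.2% and 12.2% of features). The median log2 difference of the tested channel genes was -0.38, and that of all features was 0.09. A gene that passed the detection filter only through its high tissue had to differ, so these counts describe the tested genes. Among the 46 detected in both tissues, 11 were higher in pituitary, 17 higher in hypothalamus and 18 were not called. Scaling arrays by their median in place of quantiles moved the all-feature median from 0.09 to -0.04, a shift that small differences below should be read against.

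**Figure D2:**
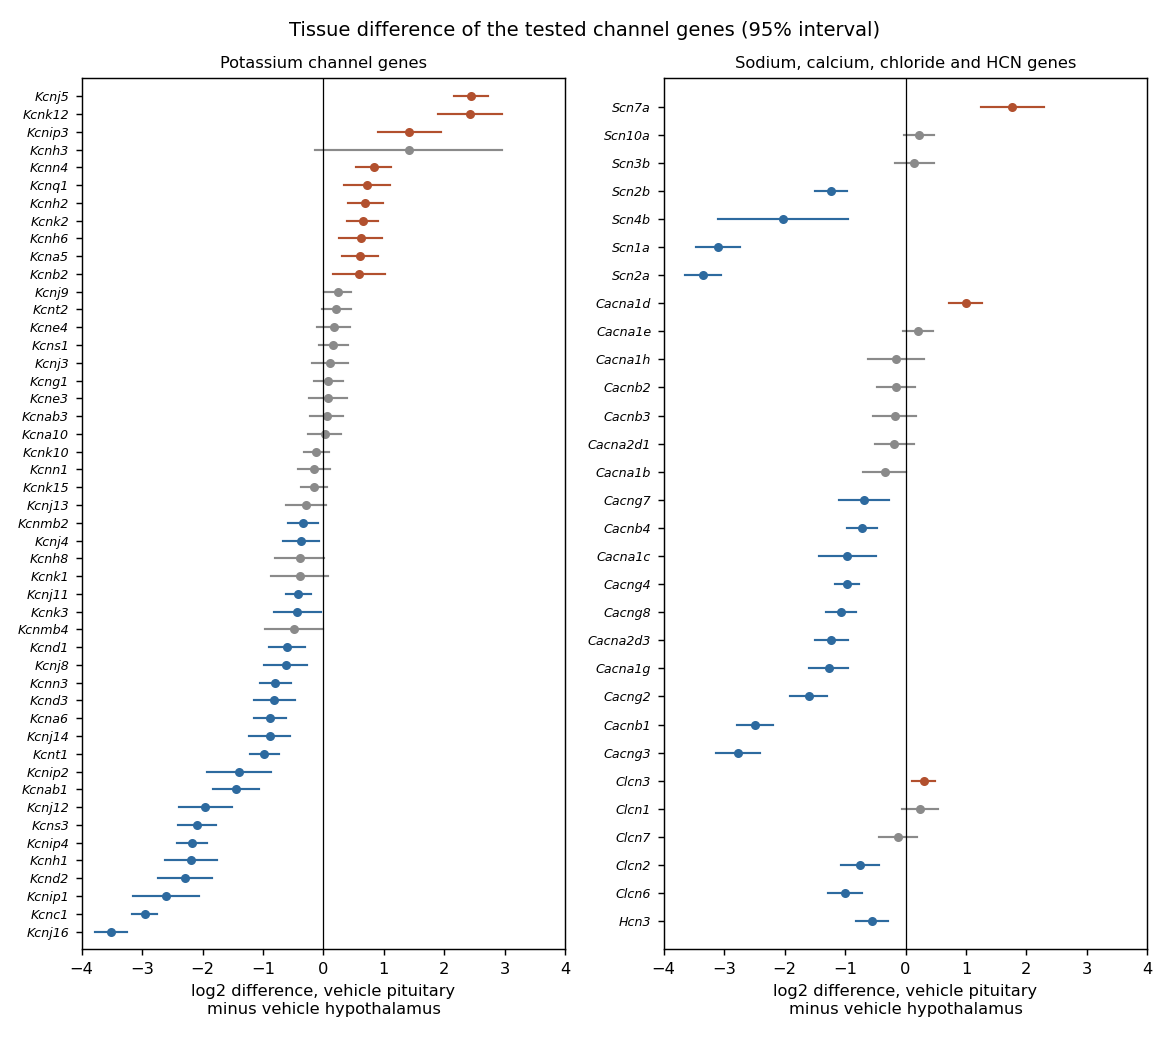
Log2 difference of vehicle pituitary minus vehicle hypothalamus (horizontal axis) for each of the 78 tested channel genes, with its 95% interval from limma. Orange genes were higher in pituitary (13) and blue genes higher in hypothalamus (38) at adjusted p under 0.05, and grey genes were not called. Kcnh3 and Scn4b have the widest intervals.

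Potassium pore genes came first among those higher in the pituitary. Kcnj5, a G protein-gated inward rectifier, read 8.45, 8.01 and 8.12 (log2 intensity) on vehicle pituitary arrays and 5.60, 5.81 and 5.85 on vehicle hypothalamus arrays. The groups were far apart, with a log2 difference of 2.44 ± 0.13 (SE, n = 3 arrays a group), 5.43-fold, limma adjusted p = 5.61e-09. Kcnk12, a tandem-pore potassium channel, read 8.09, 8.65 and 8.45 against 6.37, 5.94 and 5.62. It too had no overlap, at 2.42 ± 0.25 or 5.37-fold (limma adjusted p = 2.28e-06). Kcnk2, the stretch-sensitive background channel TREK-1, was 1.57-fold higher in pituitary with limma adjusted p = 0.000326.

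Of the 10 inward rectifiers tested, 6 (60%, against 28.6% of all features) were called higher in hypothalamus. Kcnj5 alone was higher in pituitary (10%, against 35.7%). Among the 6, Kcnj4 was at -0.37 and lost its call without hypothalamus vehicle array 1 (-0.23, limma adjusted p = 0.135). Kcnj9 and Kcnj3, at 0.24 and 0.11 (pituitary minus hypothalamus), were not called on the vehicle arrays. Kcnj16, which pairs with other inward rectifiers in glia and kidney, read 4.95, 4.79 and 4.80 in pituitary, where it was detected on 0 arrays, and 8.11, 8.45 and 8.53 in hypothalamus. It was at least 7.35-fold higher in hypothalamus (limma adjusted p = 9.46e-11). "At least" sets the bright group against a floor taken on each array of the dim group, which is its lowest detected signal or the probe itself where that is higher. Kcnj12, a strong inward rectifier, was at least 2.28-fold higher. Kcnj11, the pore of the ATP-sensitive channel, was 1.33-fold higher in hypothalamus (5.91, 6.01 and 5.85 against 6.47, 6.27 and 6.27, with no overlap; limma adjusted p = 0.00176). Its regulatory partner Abcc8, no channel pore itself, was 6.73-fold higher in pituitary (limma adjusted p = 6.86e-09).

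Voltage-gated potassium pore genes favoured the hypothalamus at the high end. Kcnc1, a fast Kv3 channel of rapidly firing neurons, read 6.12, 6.11 and 6.22 in pituitary and 9.02, 9.10 and 9.21 in hypothalamus. The arrays of each group lay close together and 7.78-fold apart (log2 -2.96 ± 0.10, limma adjusted p = 7.67e-11). Kcnd2, a Kv4 pore of the A-type current, was 4.91-fold higher in hypothalamus (8.16, 7.55 and 7.66 against 10.41, 9.88 and 9.97). Its relatives Kcnd3 and Kcnd1 were 1.76-fold and 1.52-fold higher there. In the pituitary direction stood Kcna5, a Kv1 delayed rectifier, at 0.60 log2 and Kcnb2, a Kv2 delayed rectifier, at 0.58 log2. The Kcnb2 call was lost under median scaling (0.46, limma adjusted p = 0.0772) and cyclic loess (0.44), and without pituitary vehicle array 1 (0.45) or 2 (0.56) or hypothalamus vehicle array 3 (0.51). Kcns3, a silent modifier of Kv2 channels, was at least 2.82-fold higher in hypothalamus.

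The calcium-binding partners of Kv4 channels split between tissues. Kcnip3, also known as DREAM, a calcium sensor that binds DNA as well as channels, read 8.25, 8.22 and 7.93 in vehicle pituitary and 7.41, 6.59 and 6.14 in vehicle hypothalamus. Its groups did not overlap, and it was 2.67-fold higher in pituitary (limma adjusted p = 0.000203). Kcnip4 read 5.47, 5.49 and 5.66 in pituitary and 7.52, 7.85 and 7.77 in hypothalamus, 4.51-fold higher in the latter. Kcnip2 was 2.64-fold higher in hypothalamus, and Kcnip1, detected on 0 pituitary arrays, at least 4.21-fold higher. Kcnip3 was thus the sole member of its family of 4 that was higher in the pituitary.

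The ether-a-go-go family split as well. Kcnh1, the EAG pore gene, read 6.65, 6.58 and 6.78 in pituitary and 9.35, 8.78 and 8.46 in hypothalamus, with no overlap and a 4.57-fold difference (limma adjusted p = 8.18e-07). The ERG genes lay on the other side. Kcnh2 read 7.22, 7.24 and 7.23 against 6.45, 6.72 and 6.44, and was 1.62-fold higher in pituitary (limma adjusted p = 0.000578). Kcnh6 was 1.54-fold higher in pituitary with limma adjusted p = 0.00514, without overlap. ERG channels are known in rat lactotrophs. The probes of Kcnh8, an ELK gene, disagreed: 1 read 5.75 in pituitary and 4.63 in hypothalamus on average, and the other 5.20 and 5.59, so no direction is given.

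Calcium-activated potassium genes gave smaller differences. Kcnn4 read 5.58, 5.92 and 5.70 in pituitary and 5.07, 4.76 and 4.90 in hypothalamus, where it was detected on 0 arrays, and was at least 1.33-fold higher in pituitary (limma adjusted p = 0.000137). Kcnn3, a small-conductance channel of the afterhyperpolarisation, was 1.73-fold higher in hypothalamus. The sodium-activated Kcnt1 was at least 1.37-fold higher in hypothalamus. Kcnmb4, the neuronal BK beta subunit, differed by -0.49 ± 0.22 with limma adjusted p = 0.0706. It passed the threshold under median scaling (-0.68) and cyclic loess (-0.63), and without pituitary vehicle array 3 (-0.65), hypothalamus vehicle array 3 (-0.62) or hypothalamus TCDD array 3 (-0.49). Kcnq1, known from heart and epithelia, was 1.65-fold higher in pituitary, while Kcnk3, an acid-sensitive background channel, was 1.35-fold higher in hypothalamus at limma adjusted p = 0.0498, a call lost under 4 alternatives and without any 1 of 8 arrays, with differences of -0.59 to -0.29 as single arrays were left out. Kcnk1, another tandem-pore gene, was not called (-0.39, adjusted p = 0.132), and passed without pituitary vehicle array 1 (-0.64).

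Sodium channel pore genes differed between the tissues in both directions. Scn2a, a neuronal axon channel, was detected on 0 pituitary arrays (4.99, 4.71 and 4.88) and read 8.19, 7.98 and 8.44 in hypothalamus, at least 6.56-fold higher there (limma adjusted p = 5.07e-10). Scn1a read 5.07, 5.12 and 5.12 against 8.27, 7.91 and 8.41 and was at least 6.54-fold higher in hypothalamus. Scn7a, the sodium-sensing Nax channel found in glia and pituicytes, went the other way. It read 8.40, 7.97 and 7.75 in pituitary and 5.90, 6.23 and 6.69 in hypothalamus, 3.40-fold higher in pituitary with no overlap (limma adjusted p = 3.4e-05). Of the 6 tested neural lobe and pituicyte markers, a list that holds Scn7a itself, 1 was higher in pituitary, which is Scn7a, and 2 were higher in hypothalamus, Gfap and Vim, which are also on the astrocyte list. Their part in the Scn7a value was not tested.

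Among sodium beta subunits, Scn2b was at least 1.67-fold higher in hypothalamus. Scn4b, the subunit of resurgent current, read 5.95, 6.04 and 6.35 in pituitary and 9.79, 7.42 and 7.21 in hypothalamus. Array 1 of the latter group set much of the difference, which was 4.08-fold with it (limma adjusted p = 0.00318) and 2.30-fold without it (adjusted p = 0.000165). Scn3b differed by 0.15 ± 0.15 (limma adjusted p = 0.404), and its sign turned under median scaling (-0.07) and cyclic loess (-0.03), while it passed without pituitary vehicle array 1 (0.32, adjusted p = 0.0436).

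Calcium pore genes went both ways, also within the L-type. Cacna1d, an L-type pore that opens at low voltage and supports pacemaking, read 6.53, 6.46 and 6.57 in pituitary and 5.40, 5.41 and 5.76 in hypothalamus, 1.99-fold higher in pituitary with no overlap (limma adjusted p = 1.9e-05). The L-type relative Cacna1c was 1.95-fold higher in hypothalamus (limma adjusted p = 0.00163). Cacna1g, a T-type pore of burst firing, read 6.59, 6.20 and 6.17 against 7.45, 7.49 and 7.83 and was 2.41-fold higher in hypothalamus. Cacna1h, another T-type pore, was not called (-0.15 ± 0.21, limma adjusted p = 0.549), and its sign turned without hypothalamus vehicle array 1 (0.03).

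Auxiliary calcium subunits were higher in hypothalamus wherever they were called. All 5 tested gamma subunits were, including Cacng3 at least 4.30-fold, Cacng2 3.04-fold, Cacng8 at least 1.26-fold and Cacng4 at least 1.15-fold. Gamma subunits 2, 3, 4 and 8 are known in rodent brain as partners of AMPA-type glutamate receptors. Cacng2 was also present in pituitary (8.36, 8.54 and 8.65 against 10.28, 10.23 and 9.85). Cacnb1, a cytoplasmic beta subunit, read 5.90, 5.83 and 5.67 against 8.53, 8.23 and 8.12, a 5.62-fold difference (limma adjusted p = 7.64e-09). Cacna2d3 was 2.34-fold higher in hypothalamus, while Cacnb2, Cacnb3 and Cacna2d1 were not called, at -0.16, -0.18 and -0.18. Cacna2d1, the alpha2-delta subunit bound by gabapentin, passed without pituitary vehicle array 1 (-0.37, limma adjusted p = 0.0202). Over all auxiliary subunits, 1 of the 24 tested (4.17%) was higher in pituitary and 15 (62.5%) in hypothalamus. Of the 51 tested pore genes, 12 (23.5%) and 22 (43.1%) were. Over all features the shares were 35.7% and 28.6%. A gene detected in the hypothalamus alone had to be higher there, so these shares describe the tested genes. On vehicle arrays, 6 auxiliary genes, 3 of them gamma subunits, and 6 pore genes were on 3 of 3 hypothalamus and 0 of 3 pituitary arrays.

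Of the 5 tested chloride channel genes, 1 was higher in pituitary (20%, against 35.7% of all features) and 2 in hypothalamus (40%, against 28.6%). Clcn6 and Clcn2 were 2.01-fold and 1.69-fold higher in hypothalamus (limma adjusted p = 1.78e-05 and 0.000634), and Clcn3 was 1.23-fold higher in pituitary (adjusted p = 0.00896). The Clcn3 call ended under median scaling (0.12) and cyclic loess (0.16). Clcn7, the lysosomal exchanger, was not called, at -0.13.

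Kcnh3, an ELK potassium channel of forebrain neurons, was outside the rule for named genes and was chosen after its values were seen. It read 9.85, 10.12 and 10.37 in vehicle pituitary and 11.06, 8.12 and 6.93 in vehicle hypothalamus. The single high array overlapped the pituitary range, and the difference of 1.41 ± 0.71 was not called (limma adjusted p = 0.102). Without that array it was 2.59, or 6.02-fold higher in pituitary (limma adjusted p = 8.51e-06).

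On the same array Scn4b, Kcnip2 and Kcnip3 were the highest of the 6 hypothalamus arrays, and Kcnip1 was the lowest at 6.84 against 7.54 to 8.17. Over all 78 tested genes, 26 (33.3%) were highest of 6 there and 16 (20.5%) lowest, against 21.8% and 25.7% of all features. On each of the other 5 hypothalamus arrays, 4 to 20 genes were highest and 5 to 21 lowest. The 20 highest were on TCDD array 1 (25.6%, against 12.7% of all features). The 21 lowest were on TCDD array 3 (26.9%, against 20.1%). Markers of striatum, septum and cortex were high on hypothalamus vehicle array 1: 9 of 9 tested genes were highest there. Their summed level was 14.62 (log2) against 13.09 to 13.52 on the other 5 hypothalamus arrays. Oligodendrocyte markers were highest there for 9 of 11 genes. The thalamus sum was lowest, at 12.59 against 13.02 to 13.68, but only 2 of its 6 tested genes were lowest there. No gene of these 3 lists was at 0 of 12 arrays. Their part in the channel values was not tested.

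**Figure D3:**
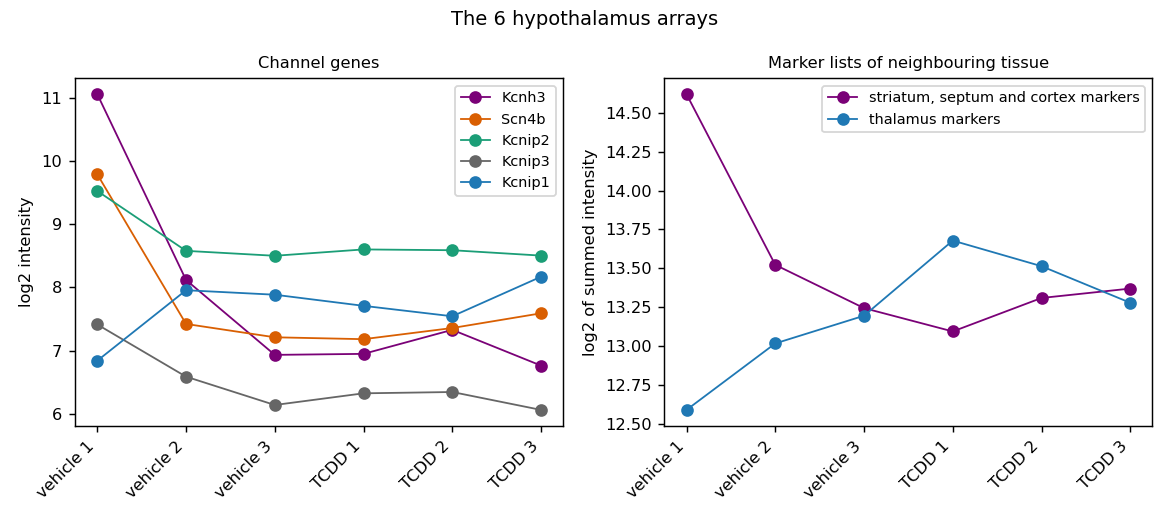
Left, log2 intensity of 5 channel genes on the 6 hypothalamus arrays. Right, log2 of the summed intensity of 2 marker lists on the same arrays. Vehicle array 1 is highest for Kcnh3 (11.06), Scn4b, Kcnip2, Kcnip3 and the striatum, septum and cortex sum (14.62). It is lowest for Kcnip1 (6.84) and the thalamus sum (12.59). Lines only join the arrays of 1 gene or list.

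The tissue comparison was repeated on the 6 TCDD arrays. Of the 51 genes called with vehicle arrays, 50 had the same sign and 46 were called again with that sign, 10 higher in pituitary and 36 higher in hypothalamus (35.8% and 28.9% of all features were called in those directions on TCDD arrays). In all, 15 and 38 channel genes were called on TCDD arrays, and 9 and 40 under median scaling. The 5 not called again were Kcna5, Kcnb2, Kcnh6, Kcnj4 and Kcnmb2, and Kcnj4 had the turned sign (-0.37 with vehicle, 0.07 with TCDD). Of the 25 genes at 2-fold or more, 23 were called at 2-fold or more again (10.2% and 12.9% of features reached that higher in pituitary and in hypothalamus). Called on TCDD arrays alone were Kcnh3, Kcnh8, Kcnj9, Kcnk1, Kcnt2, Scn10a and Scn3b, with Kcnh3 at 3.08 (limma adjusted p = 0.00211). Both comparisons were fitted together and share 1 estimate of the spread.

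Related genes outside the family were counted from 3 lists. Of 20 tested partners and regulators (36 listed), 3 were higher in pituitary and 10 in hypothalamus. The 3 were Abcc8 and the small GTPases Rem2 (6.01-fold) and Gem (5.92-fold), which restrain high-voltage calcium channels. In hypothalamus the sodium channel partners Fgf13 (at least 7.12-fold) and Fgf12 (at least 4.27-fold) and the Kv4 partner Dpp10 (at least 2.99-fold) were higher. Of 24 tested other cation and anion channels (47 listed), 8 were higher in pituitary and 13 in hypothalamus. Of 16 tested genes of calcium release and entry (26 listed), 4 and 8 were. In the order given, the shares were 15% and 50%, 33.3% and 54.2%, and 25% and 50% of the tested genes. Over all features they were 35.7% and 28.6%.

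Promoter sequences were available for 86 of the 123 genes in RefSeq's table of assembly GRCr8. TCDD acts through a receptor complex that binds the core letters GCGTG, so that motif was searched on both strands from 250 bases before to 50 bases after each annotated start. It was found for 33 of 86 genes (38.4%), against 32.4% of 27457 genes. The longer TNGCGTG, which contains it, was found for 8 (9.3% against 5.45%). Channel promoters were richer in G and C, with a median of 61.7% against 52.3%. A match describes letters in the window and is not a binding site.

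The 250 bases before the start are printed 5′ to 3′ on the gene's strand for genes with opposite tissue differences within a family and for Kcnd3, which had the lowest TCDD value in the pituitary. Capitals mark GCGTG or its reverse complement CACGC. Only for Kcnd3 and Cacna1d, among the printed genes, is the start used also the gene start in RefSeq's gene table. Scn2a (chr3:70710706-70710955, plus strand) and Scn7a (chr3:71846285-71846534, minus strand) are on the same chromosome, and each holds 1 core, starting at -138 and -121 from the start.
Scn2a: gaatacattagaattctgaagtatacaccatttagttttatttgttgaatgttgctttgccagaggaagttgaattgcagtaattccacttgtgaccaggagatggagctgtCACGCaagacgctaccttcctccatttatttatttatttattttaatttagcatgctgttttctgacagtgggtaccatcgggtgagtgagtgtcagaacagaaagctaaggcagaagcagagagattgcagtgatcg
Scn7a: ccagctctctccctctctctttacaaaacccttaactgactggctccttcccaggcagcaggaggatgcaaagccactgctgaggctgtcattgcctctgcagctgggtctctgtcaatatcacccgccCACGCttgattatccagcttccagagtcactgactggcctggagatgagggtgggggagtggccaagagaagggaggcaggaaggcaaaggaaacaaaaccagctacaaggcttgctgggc
Kcnh1 (chr13:106252966-106253215, plus strand) holds none, and Kcnh6 (chr10:91449401-91449650, plus strand) holds 1 at -198.
Kcnh1: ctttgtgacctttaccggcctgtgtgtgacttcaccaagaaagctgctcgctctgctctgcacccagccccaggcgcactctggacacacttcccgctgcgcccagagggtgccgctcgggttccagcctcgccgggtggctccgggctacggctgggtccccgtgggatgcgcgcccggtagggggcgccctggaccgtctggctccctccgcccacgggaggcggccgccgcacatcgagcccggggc
Kcnh6: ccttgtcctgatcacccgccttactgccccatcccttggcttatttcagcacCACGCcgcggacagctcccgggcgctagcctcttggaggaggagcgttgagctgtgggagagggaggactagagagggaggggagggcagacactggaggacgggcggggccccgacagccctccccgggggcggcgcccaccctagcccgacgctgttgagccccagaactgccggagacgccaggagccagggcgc
Kcnip3 (chr3:135195411-135195660, minus strand) and Kcnd3 (chr2:195626066-195626315, plus strand) hold none, and Cacna1d (chr16:5527550-5527799, minus strand) holds 1 at -164. Cacna1d's window is 88.8% G and C and that of Scn2a 39.6%, the widest gap among these 7.
Kcnip3: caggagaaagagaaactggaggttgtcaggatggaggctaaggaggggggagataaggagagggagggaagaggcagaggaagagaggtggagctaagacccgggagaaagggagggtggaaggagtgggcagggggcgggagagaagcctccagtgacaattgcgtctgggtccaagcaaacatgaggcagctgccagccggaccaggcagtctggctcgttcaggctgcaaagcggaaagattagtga
Kcnd3: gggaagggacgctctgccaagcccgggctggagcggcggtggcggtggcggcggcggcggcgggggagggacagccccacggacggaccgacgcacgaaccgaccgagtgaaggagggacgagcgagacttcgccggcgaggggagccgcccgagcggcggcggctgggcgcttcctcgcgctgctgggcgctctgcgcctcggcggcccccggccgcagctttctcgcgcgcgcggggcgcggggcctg
Cacna1d: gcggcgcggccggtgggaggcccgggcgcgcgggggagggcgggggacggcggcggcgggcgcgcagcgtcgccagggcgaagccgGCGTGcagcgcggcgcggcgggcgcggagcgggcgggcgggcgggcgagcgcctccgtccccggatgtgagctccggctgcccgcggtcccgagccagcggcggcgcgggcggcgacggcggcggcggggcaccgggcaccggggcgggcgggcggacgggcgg

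TCDD and vehicle arrays were compared inside each tissue, to ask which channel transcripts differed in adulthood after exposure before birth. After adjustment, 0 of 56 tested channel genes in the pituitary and 0 of 76 in the hypothalamus passed at 0.05 in limma. Over all features, 0% passed in the pituitary and 0.00901% in the hypothalamus. At an unadjusted p under 0.05 there were 7 channel genes in the pituitary (12.5%, against 6.07% of features), 3 higher (2.75% of features) and 4 lower (3.32%) with TCDD. In the hypothalamus there were 2 (2.63%, against 5.35%), 1 higher (2.69% of features) and 1 lower (2.66%). Vehicle and TCDD arrays did not overlap for 7 pituitary genes (11.1% of features) and for 3 hypothalamus genes (10.9%). None of the alternatives run gave a channel gene at adjusted p under 0.05. The unadjusted counts moved with single arrays: the pituitary count was 3 without vehicle array 2, and the hypothalamus count was 5 without vehicle array 3 and 0, 4 and 6 without TCDD arrays 1, 2 and 3.

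**Figure D4:**
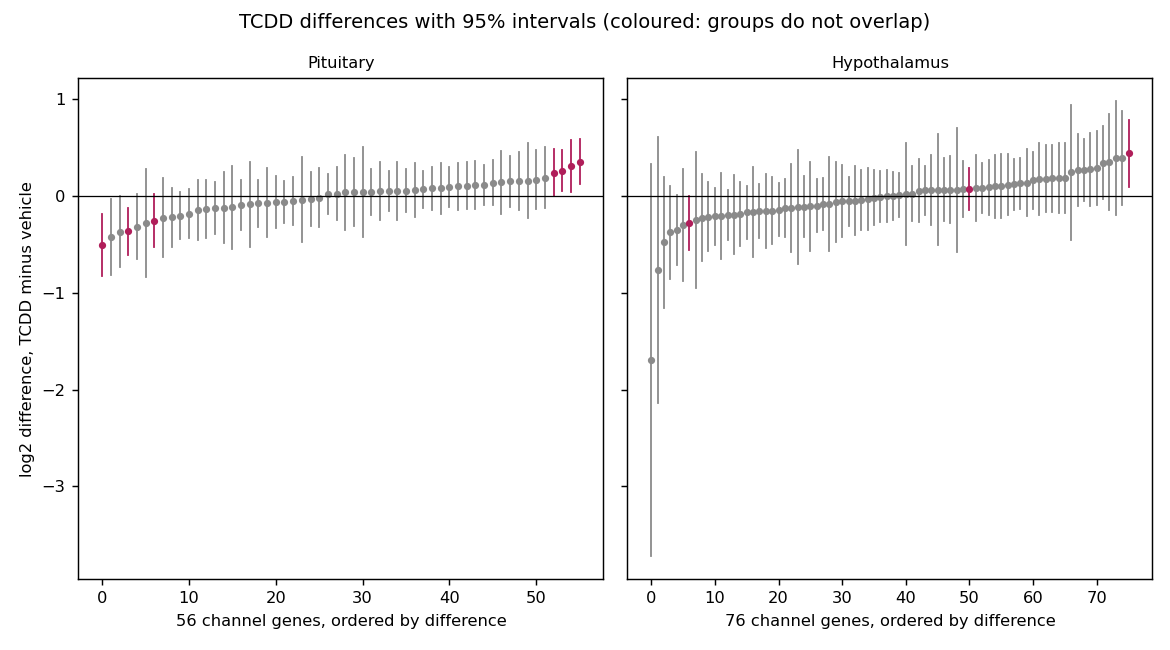
Log2 difference of TCDD minus vehicle (vertical axis) with its 95% interval from limma for every tested channel gene, ordered within each tissue. Coloured genes are those whose 3 vehicle and 3 TCDD arrays do not overlap. Pituitary differences run from -0.51 to 0.36 and hypothalamus differences from -1.69 (Kcnh3) to 0.45.

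The precision bounds what could have been seen. The median 95% interval reached 0.28 log2 to each side in the pituitary, or 1.21-fold, and 0.35 in the hypothalamus, or 1.27-fold. The interval stayed within a 2-fold change for 56 of 56 pituitary genes and 73 of 76 hypothalamus genes. It stayed within 1.5-fold for 48 and 52. With 3 arrays against 3, a two-sided exact permutation test of a single gene cannot go below 0.1.

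In the pituitary, Kcnd3, a pore gene of the A-type Kv4 potassium channels, read 7.43, 7.09 and 7.64 (log2, pituitary arrays normalized on their own) with vehicle and 6.80, 6.95 and 6.90 with TCDD. All 3 TCDD arrays were below the vehicle arrays, at -0.51 ± 0.14, with unadjusted p = 0.00664 and adjusted p = 0.640 in limma. Kcnip4, a Kv4 partner, read 5.48, 5.50 and 5.65 with vehicle and 6.01, 5.77 and 5.93 with TCDD. Its TCDD arrays were all above, at 0.36 ± 0.10 (limma adjusted p = 0.646). The other Kv4 genes tested there were closer to 0 and had overlapping groups, with Kcnd1 at 0.08, Kcnd2 at -0.08, Kcnip2 at -0.12 and Kcnip3 at -0.18.

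Summed levels of some cell marker lists also differed between the pituitary groups without overlap. The summed level of 10 meninges and fibroblast markers was 14.56 to 14.75 (log2, all 12 arrays normalized together) with vehicle and 14.18 to 14.39 with TCDD. The sum of 9 genes of the striatum, septum and cortex list was 12.97 to 13.03 and 13.22 to 13.32. That of 13 pan-neuronal markers was 13.80 to 13.84 and 13.86 to 13.93. That of 6 folliculostellate and stem cell markers was 12.28 to 12.36 and 12.41 to 12.47. Gene by gene (pituitary arrays normalized on their own), these lists were mixed. With TCDD, 3 meninges and fibroblast genes were higher and 7 lower, and 8 and 1 of the striatum, septum and cortex list. Of 11 tested pan-neuronal genes, 6 were higher and 5 lower, and of the folliculostellate and stem genes 3 and 3. The striatum, septum and cortex list does not mark brain tissue alone here. Of its 9 genes, 3 (Rgs9, Drd2 and Foxp1) were higher in vehicle pituitary than in vehicle hypothalamus, and 4 were lower. No gene in these sums was undetected on all 12 arrays. Their part in the pituitary channel values was not tested.

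Kcnh8 read 5.80, 5.54 and 5.84 with vehicle and 5.30, 5.43 and 5.37 with TCDD. It was detected on all 3 vehicle arrays and 0 of 3 TCDD arrays, and so was at least 1.13-fold lower with TCDD (limma adjusted p = 0.677). That probe is the one that read higher in pituitary than hypothalamus. Cacna2d3 read 5.63, 5.59 and 5.62 with vehicle and 6.01, 5.84 and 5.78 with TCDD, without overlap, at 0.27 ± 0.09 (limma adjusted p = 0.773). Cacnb2 read 6.56, 6.49 and 6.43 with vehicle and 6.66, 6.70 and 7.03 with TCDD. The third TCDD array was well above the other two, and the difference was 0.31 ± 0.12 (limma adjusted p = 0.817).

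The pituitary-enriched genes gave these values with TCDD. Kcnj5 was at -0.25 ± 0.12 (limma adjusted p = 0.848), with all 3 TCDD arrays (7.88, 7.80 and 7.83) below the vehicle arrays (8.34, 7.91 and 8.02). Kcnip3 was at -0.18, Kcnk12 at 0.14, Cacna1d at 0.14 and Kcnh2 at 0.06, with overlapping groups. Kcnq1 was at -0.32, Kcnn4 at -0.22, Kcna5 at -0.13, Scn7a at -0.07, Kcnk2 at -0.06 and Clcn3 at 0.06, again with overlap. Kcnh6 and Kcnb2 had unadjusted p values of 0.0499 and 0.037 (-0.37 and -0.42), also with overlap. By detection, 44 channel genes were present on all 3 TCDD pituitary arrays against 49 with vehicle, and the share over all features was 41.1% against 42.4%.

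In the hypothalamus, calcium channel genes gave both of the values at unadjusted p under 0.05. Cacna1g, the T-type pore gene, read 7.54, 7.58 and 7.92 with vehicle and 8.32, 8.14 and 7.93 with TCDD (hypothalamus arrays normalized on their own). The groups met without overlapping, at 0.45 ± 0.15, with unadjusted p = 0.0178 and adjusted p = 0.883 in limma. Without hypothalamus vehicle array 1 the Cacna1g difference was 0.37, with unadjusted p = 0.0524 in limma. T-type channels are prominent in rodent thalamus. The 6 tested thalamus markers (8 listed) had summed levels of 12.59 to 13.19 (log2) on vehicle arrays and 13.28 to 13.68 on TCDD arrays, also without overlap, and their part in the Cacna1g value was not tested. Cacng4 read 5.88, 5.73 and 5.52 with vehicle and 5.40, 5.42 and 5.46 with TCDD, all lower, at -0.28 ± 0.12 (limma adjusted p = 0.883). Without hypothalamus vehicle array 1 its difference was -0.20, with unadjusted p = 0.139. Clcn3 did not overlap either (7.55, 7.58 and 7.61 with vehicle, 7.64, 7.65 and 7.67 with TCDD), with a difference of means of 0.07 (limma adjusted p = 0.923).

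Hypothalamus vehicle array 1 set the most extreme TCDD values. Kcnh3 was at -1.69 with it and -0.51 without it, and Scn4b was at -0.77 and 0.06. Kcnj8, the pore of vascular ATP-sensitive channels, was at 0.36 with it and 0.63 without it, where its unadjusted p was 0.000671 (adjusted p = 0.951 in limma). The count at an unadjusted p under 0.05 was 2 with and without that array, but the genes were not the same. Without it they were Kcnj8 and Kcnd1, and Cacna1g and Cacng4 no longer passed. Kcnd1 was at 0.29 with it and 0.45 without it (unadjusted p = 0.0132 in limma).

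**Figure D5:**
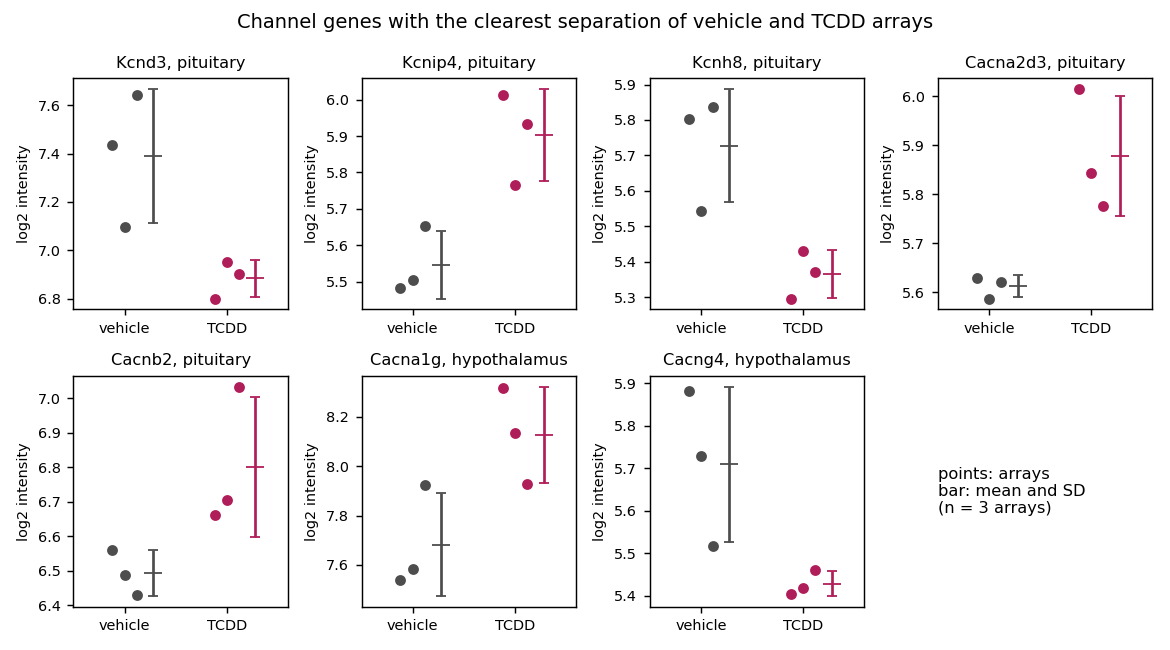
Log2 intensity of each array (points) for 5 channel genes in the pituitary and 2 in the hypothalamus, by vehicle and TCDD, with the group mean and SD beside them (n = 3 arrays). Vertical axes differ between panels. In each panel the 3 TCDD arrays lie on 1 side of the 3 vehicle arrays, and none of the 7 genes passed adjustment over all features.

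Whether the TCDD effect differed from one tissue to the other was tested directly. Of 78 channel genes, 3 had an unadjusted p under 0.05 (6.2% of features did) and 0 passed adjustment. The count was 8 without hypothalamus vehicle array 3 and 5 without hypothalamus TCDD array 2. Kcnd3 was at -0.58 ± 0.22 (pituitary effect minus hypothalamus effect, limma adjusted p = 0.721), Cacng4 at 0.32 ± 0.13 (adjusted p = 0.748) and Kcnj4, an inward rectifier, at 0.45 ± 0.19 (adjusted p = 0.783). Kcnn1, Kcnh6 and Cacna1e followed at 0.36, -0.46 and -0.31 with unadjusted p values of 0.0611, 0.0729 and 0.0801. No channel gene was therefore shown to respond in 1 tissue alone.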

How the data were processed

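The deposited table gave, per the file headers, detection p-values and a signal intensity, which the authors had left without normalization, for 22523 probes. Any scanner background step is not given in the sources used here. The authors' second deposited table held normalized intensity, made for each tissue separately per the labels' series text by an unstated method, and served as an alternative only. Gene names came from the platform annotation (13793 probes with 1 symbol, 0 with several, 8730 unnamed), checked against RefSeq's GRCr8 gene table, which held all 126 channel probes.

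Signals were background-corrected from detection p-values (limma 3.58.1 nec, offset 16, in R 4.3.3), quantile normalized and taken to log2, per tissue for TCDD effects and over all 12 arrays for tissue and interaction contrasts. The offset draws folds of dim probes toward 1. Probes with detection p under 0.05 on at least 3 arrays were tested. A gene was its probe of highest mean. limma's lmFit and eBayes were used, two-sided, with Benjamini-Hochberg adjustment over all features and no block. Precision is limited by having 3 arrays in each group. The fits were tested on simulated data with known changes. No 2 arrays held the same values: pairs shared 25 to 92 identical probe values.

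Genes were named by rule: the 12 largest called, non-overlapping tissue differences per direction; up to 6 non-overlapping genes at unadjusted p under 0.05 per tissue and direction for TCDD; up to 3 per direction for the interaction; genes detected in 1 tissue alone; and a fixed set of well-known channels, some of which are not reported here. Relatives such as Kcnd1, Kcnip2, Cacng2, Cacnb3 and Clcn6, and the partner genes named with values, were added after their values were seen, to complete a family or list. The channel genes, lists and rules were chosen with earlier results of these data known. Marker lists for microglia, endothelium, astrocytes, meninges and folliculostellate cells were counted too. Alternatives covered background, scaling, filter, variance model, array weights, probe choice, single arrays left out and replicate blocks. Same-numbered vehicle and TCDD arrays had correlated deviations of 0.07, 0.19 and 0.07 in the pituitary and 0.11, 0.10 and 0.26 in the hypothalamus. Arrays of unlike number gave -0.13 to 0.04 in the pituitary and -0.38 to 0.25 in the hypothalamus. The labels name no pairs, so the main fits used none, and blocks by number were run as alternatives.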

Additional observations from a re-analysis of the deposited data

How the results depend on the processing

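Precision rests on 3 arrays a group, and dim probes near background carry folds drawn toward 1. The tissue counts for vehicle arrays (13 higher in pituitary, 38 in hypothalamus) ran from 12 to 14 and from 35 to 40 as single arrays were left out, and were 4 and 21 at 2-fold or more. On TCDD arrays the 15 genes higher in pituitary became 9 under median scaling and 9 under cyclic loess, and 11 to 16 without single arrays. Detection p under 0.01 lowered the detected genes from 49 to 29 in pituitary and from 66 to 54 in hypothalamus. Signs turned for Scn3b (-0.072 under median scaling, -0.028 under cyclic loess) and Cacna1h (-0.15, from -0.297 to 0.026 as single arrays were left out, the last without hypothalamus vehicle array 1). Without that array Scn4b moved from -2.03 to -1.20 and Kcnj8 from -0.62 to -0.38, both still called.

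No alternative run gave a TCDD or interaction call after adjustment. The 7 pituitary genes at unadjusted p under 0.05 became 11 with array weights, 1 in the authors' table and 3 to 8 without single arrays. The 2 hypothalamus genes became 1 without background correction, 1 under median scaling, 1 with trend and robust variance, 8 with array weights, 5 with all 12 arrays together and 0 to 6 without single arrays. The 3 interaction genes became 6 with no filter, 8 with array weights and 2 to 8 without single arrays. The cause of these moves was not tested. With the replicate number as a block, the pairing gave 8 pituitary and 4 hypothalamus genes at unadjusted p under 0.05, and with the title's shared numbers as a block 7 and 6. The replicate block left the vehicle tissue counts at 13 and 38.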

Other observations

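Some channel genes were on all 3 arrays of only the vehicle or only the TCDD group. In the pituitary, 39.8% of channel genes were detected with vehicle and 35.8% with TCDD, against 42.4% and 41.1% of all features. In the hypothalamus the shares were 53.7% and 52.8%, against 45.9% and 45.9%. The share of all features that switched in this way was not counted. In the pituitary, Cacnb1, Clcn1, Kcnab3, Kcnh8, Kcnj13, Kcnn4 and Kcnq1 (7 genes) were on all 3 vehicle arrays but not all 3 TCDD arrays, and Cacna1c and Kcnj14 (2 genes) had the reverse pattern. Kcnh8 was the single gene of these on 0 of 3 TCDD arrays. In the hypothalamus, 4 genes (Clcn1, Kcnb2, Kcnj3 and Kcnk12) left full detection with TCDD and 3 (Hcn3, Kcnh8 and Kcnj8) reached it. These shifts were not tested, and those of Kcnh8 in pituitary and hypothalamus come from different probes.

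Other motifs in the 86 channel promoter windows, searched on both strands, were given the same count. The GC box GGGCGG was found for 51.2% of channel genes and 36% of all genes, and TATAAA for 5.81% and 15.3%. TTCAGCACC, the left part of the site of the neuronal repressor REST, was found for 2 genes, Cacng3 and Kcnh6 (2.33% against 0.404%). Base composition differed between the sets (median 61.7% against 52.3% G and C), and its part in these shares was not tested.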
